A study of Mus musculus with 4 samples.

Results

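The genes described here encode the initiation and elongation factors of cytosolic translation, together with the enzymes and binding proteins that carry the same name stems. The rule that picks them goes by name: every protein-coding gene whose symbol starts with Eif and a digit, or with Eef1 or Eef2. The set was proposed with earlier results of these data known. It found 66 of the 13881 genes in the expression table, or 66 of its 12187 protein-coding genes. The RNA came from neural progenitor cells, dividing precursors of neurons and glia, taken from the forebrain of C57BL/6 mouse embryos on embryonic day 14. All cells were grown as proliferating cultures in medium with 2% B27 (without vitamin A), EGF at 20 ng/ml and FGF-2 at 20 ng/ml. In 2 libraries, called shRybp, a lentivirus had delivered a short hairpin RNA against Rybp, which encodes a binding partner of Polycomb repressive complex 1. The other 2 libraries are labelled as controls, and what vector they received is not given in the sources read.

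As background, translation starts when eIF2 brings the initiator tRNA to the small ribosomal subunit, helped by eIF1, eIF1A, eIF3 and eIF5. The cap-binding complex eIF4F, made of eIF4E, eIF4G and eIF4A, recruits the mRNA, and eIF4E-binding proteins can block its assembly. Elongation then runs through eEF1, which delivers aminoacyl-tRNA, eEF2, which moves the ribosome by a codon, and eIF5A, which helps at sites where peptide bonds form slowly. The name stems also take in 4 kinases that phosphorylate eIF2, 3 proteins that bind eIF4E, and 6 enzymes that methylate or phosphorylate elongation factors.

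The libraries held 14355308 to 17598873 counts. Rybp itself read 4.43 and 3.95 FPKM in the controls against 3.01 and 2.66 in the shRybp libraries, and it fell by 0.60 on the log2 scale (SE 0.12, edgeR adjusted p = 0.00175). FPKM scales the reads of a gene by its length and by the library's size, so levels can be compared between genes. Nothing in the labels makes the replicates separate cultures, so the p-values rest on a spread between libraries that may be technical. All 7 neural progenitor markers looked at were detected, of which Nes and Vim rose and Sox2, Fabp7 and Msi1 fell. All 5 astrocyte markers fell, and their summed level was 266 and 278 FPKM in the controls, against 133 and 145 after knockdown. Neuronal markers summed to 60.5 to 69.1 FPKM in the 4 libraries, and of 3 tested 1, Dcx, fell (log2 fold change -1.215). Oligodendrocyte-lineage markers summed to 707 to 779 FPKM, mostly from Olig1 and Olig2, which did not pass. Of these 5 markers 2 fell, Pdgfra (log2 fold change -1.26, edgeR adjusted p = 2.4e-07) and Sox10 (-1.99, edgeR adjusted p = 7.1e-06). The single microglial marker measured, Csf1r, stayed at or under 0.530 FPKM and the single endothelial one, Kdr, at or under 0.216. Whether these shifts in other genes bear on the translation factors was not tested, and in bulk RNA fewer cells of a type and less RNA per cell cannot be told apart.

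Translation factor transcripts were more often higher than lower after Rybp knockdown. Of the 66 genes, 65 had a mean of at least 1 FPKM and were tested, and the remaining gene, Eif4e3, is described below with its counts. In shRybp cells 22 of the 65 rose (33.8%), where 16.3% of all 12062 tested genes rose, and 3 fell (4.62%), where 16.7% of all tested genes fell. Counting both directions, 25 genes changed (38.5%), against 33.0% of all tested genes. The difference from the whole table was therefore in direction more than in the number of changed genes. Both shRybp libraries lay above both controls for 41 of the 65 (63.1%), where 38.5% of all tested genes did so. Both lay below for 8 (12.3%), where 29.0% of all tested genes did so. The median log2 fold change was 0.11 over the 65 genes and 0.003 over all tested genes, with 46 of the 65 above zero. The changes were small: among the 25 changed genes the median size was 0.29 on the log2 scale, and among all changed genes of the table it was 0.395. With any 1 library left out fewer of the 65 genes rose, and so did fewer of all tested genes. The median over the translation factor genes then ran from 0.077 without control 2 to 0.134 without control 1.

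**Figure D1:**
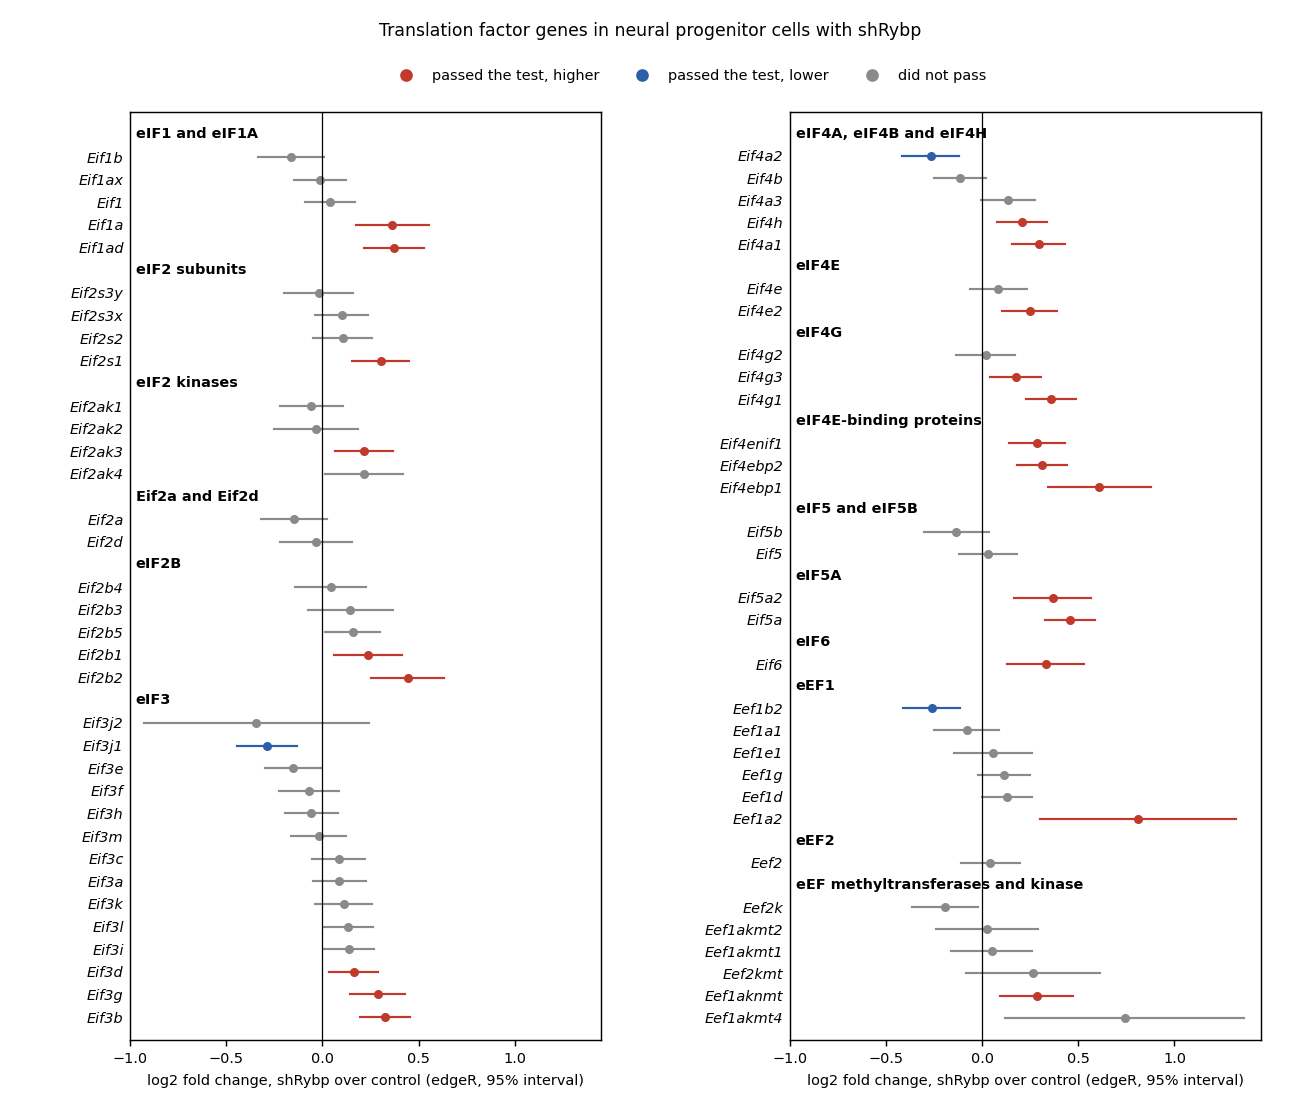
Log2 fold change of shRybp over control (horizontal axis) for the 65 tested translation factor genes, grouped by complex, with points for the edgeR estimate and bars for its 95% interval. The 22 genes that rose and the 3 that fell are coloured, and the eIF4E-binding proteins and eIF5A genes lie wholly to the right of zero.

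By family, the eIF4 genes held the most that rose. There 8 of 13 tested genes rose and 1 fell, with a median of 0.21. In the eIF1 and eIF6 group 3 of 6 rose and none fell, and in eIF5 genes 2 of 4 rose and none fell. In eIF2B 2 of 5 rose and all 5 were above zero. The eIF2 genes gave 2 that rose and none that fell among 10, eIF3 3 and 1 among 14, and the eEF genes 2 and 1 among 13. Over all tested genes 16.3% rose and 16.7% fell, and the shares of the eIF2, eIF3 and eEF genes that rose are near the former. Without control 2 or shRybp 2 fewer eIF4 genes rose, as over all tested genes, and their median was 0.178 or 0.188. The small counts of the other families turn on single libraries, named below with each gene. These are counts from one fit across all genes, and no test of one family against another was made.

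The pool of translation factor RNA was dominated by Eef1a1, which did not pass the threshold. Transcripts of all 66 genes took 2.50% and 2.48% of control counts and, after knockdown, 2.62% and 2.60%. Eef1a1 alone took 0.993% and 1.00% of control counts and 0.979% and 0.953% after knockdown. Without Eef1a1 the other genes took 1.51% and 1.48% in the controls and 1.64% in each shRybp library, so that the groups did not overlap.

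Stretches of the promoters of 9 genes are shown first, because their promoters hold a motif known from translation genes, an E-box or a pyrimidine run near the annotated start. The E-box CACGTG, which reads the same on both strands, is the preferred site of Myc and Max and of related factors. It is in capitals in the next 6 stretches, from the 5 genes that rose and had it and from Eef2, which was not past the threshold. All sequences are 5′ to 3′ on the strand of the gene, from RefSeq on GRCm38.p6.
Eif4g1 (chr16:20672646-20672705, + strand): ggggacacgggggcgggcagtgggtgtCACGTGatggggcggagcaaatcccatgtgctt
Eif4a1 (chr11:69672580-69672639, - strand): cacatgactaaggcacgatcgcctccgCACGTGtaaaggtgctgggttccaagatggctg
Eif4h (chr5:134639473-134639532, - strand): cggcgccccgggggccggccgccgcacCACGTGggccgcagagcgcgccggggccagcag
Eif5a2 (chr3:28781108-28781167, + strand): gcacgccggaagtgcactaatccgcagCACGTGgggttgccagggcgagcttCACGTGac
Eef1aknmt (chr1:162548460-162548519, - strand): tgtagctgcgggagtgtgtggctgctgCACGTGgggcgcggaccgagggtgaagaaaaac
Eef2 (chr10:81176561-81176620, + strand): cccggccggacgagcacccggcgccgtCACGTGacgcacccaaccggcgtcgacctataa

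As background, terminal pyrimidine tracts, a C followed by a run of C and T at the very start of the transcript, mark mRNAs whose translation responds to mTORC1 and to the binding protein Larp1. In these 3 stretches of 50 bases the annotated start is base 26, and a C followed by at least 5 pyrimidines is in capitals. The runs begin near that base and not at it, so they are not shown to be terminal. Eef1a1 and Eif3f were not past the threshold, and Eif2b2 rose.
Eef1a1 (chr9:78481700-78481749, - strand): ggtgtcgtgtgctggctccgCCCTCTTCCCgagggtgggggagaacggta
Eif3f (chr7:108934390-108934439, + strand): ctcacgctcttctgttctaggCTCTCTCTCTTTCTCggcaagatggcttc
Eif2b2 (chr12:85219456-85219505, + strand): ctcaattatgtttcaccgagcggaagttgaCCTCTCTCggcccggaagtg

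Promoter windows of 300 bases, from 250 before to 50 after the annotated start nearest the table's 5′ end, were matched for 53 of the 66 genes. CACGTG was present in 12 of the 53 (22.6%), in 7.15% of 32851 mouse promoter windows and in 10.6% of 8637 windows of tested protein-coding genes. Among genes that rose 5 of 19 held it (26.3%), among those not past the threshold 7 of 31 (22.6%), and among those that fell 0 of 3. The 12 genes with it had a median log2 fold change of 0.16 and the 41 without it 0.10. The count turns on the start used, since Eif5a, which rose, has CACGTG at 3 of its 6 RefSeq starts and Eif4e at 1 of 2, and both are counted as without it. A pyrimidine run, counted as a C followed by at least 5 pyrimidines starting within 10 bases of the annotated start on the strand of the gene, was present in 10 of the 53 (18.9%) and in 18.5% of all windows. It was found in 3 of 19 genes that rose and in 7 of 31 not past the threshold. The median log2 fold change was 0.12 with a run and 0.11 without. The count of runs also depends on the start used, since 1 annotated start per gene was searched. A run at another start would be missed. A match of letters does not show that a factor binds.

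Among the cap-binding complex genes, the main scaffold and the main helicase rose while a helicase paralogue fell. Eif4g1 (chr16:20668313-20692884 of mm10), the scaffold that joins the cap, the helicase and eIF3, read 83.1 and 84.3 FPKM in the controls and 109 and 111 after knockdown. Its increase was 0.36 on the log2 scale (SE 0.06, edgeR adjusted p = 0.00074), and the groups were far apart. Eif4g3, a close paralogue, read 20.9 and 21.3 FPKM in the controls and 23.6 and 25.2 after knockdown, an increase of 0.17 (SE 0.06, edgeR adjusted p = 0.0428). Eif4g2, which lacks the part that binds eIF4E and is the most abundant of the 3, read 174 and 167 against 184 and 170 FPKM. Its groups overlapped, and the log2 difference of 0.02 had an interval of -0.14 to 0.17. The call on Eif4g3 was lost in 8 of 14 alternative fits: without control 1 (edgeR adjusted p = 0.153), control 2 (0.114) or shRybp 2 (0.27), with DESeq2 (adjusted p = 0.0719), with a minimum mean of 5 FPKM (edgeR adjusted p = 0.0603) and with limma in 3 forms (adjusted p from 0.0532 to 0.109).

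Eif4a1 (chr11:69666936-69672423), the helicase that unwinds mRNA ahead of the scanning ribosome, read 227 and 225 FPKM in the controls and 289 and 278 after knockdown. It rose by 0.29 (SE 0.06, edgeR adjusted p = 0.00388). Eif4a2 (chr16:23107444-23114136), its close paralogue, moved the other way, with 44.4 and 47.2 FPKM in the controls and 36.5 and 41.3 after knockdown. It fell by 0.27 on the log2 scale (SE 0.07, edgeR adjusted p = 0.00976), and the groups did not overlap, although the call was lost without shRybp 1 (edgeR adjusted p = 0.0975) and with limma on log2(FPKM + 1) or log2(FPKM + 0.1) (adjusted p = 0.0631 and 0.0638). Eif4h, a cofactor of the helicase, rose from 65.7 and 63.5 to 75.3 and 77.4 FPKM, by 0.21 (SE 0.06, edgeR adjusted p = 0.0199). That call was lost without control 2 (edgeR adjusted p = 0.133) or shRybp 2 (0.102). Eif4b, the other cofactor, had a log2 difference of -0.12 and Eif4a3, the helicase of the exon junction complex, one of 0.13, and neither passed.

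The Eif4a1 rise has a sequence limit. A processed pseudogene, Eif4a-ps4, matches Eif4a1 at 99.9% over 1218 bases, and its counts came to 11.8% of those of Eif4a1. It also rose, by 0.25 (SE 0.06, edgeR adjusted p = 0.00994), from 98.9 and 93.9 to 119 and 116 FPKM, a call lost without control 2 or shRybp 1 (edgeR adjusted p up to 0.0818). Reads of the pseudogene and of Eif4a1 may have been split between the pair by the authors' counting, so how much each changed cannot be told apart.

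Among the genes for cap-binding proteins, Eif4e2 rose and Eif4e was not past the threshold. Eif4e, the cap-binding subunit, read 41.1 and 36.4 FPKM in the controls and 42.3 and 41.9 after knockdown, with a log2 difference of 0.09 (interval -0.06 to 0.23) that did not pass. Eif4e2, a homologue known for repressing bound mRNAs, rose from 11.7 and 11.3 to 13.8 and 14.2 FPKM, by 0.25 (SE 0.07, edgeR adjusted p = 0.012). Without control 2 its edgeR adjusted p was 0.0736 and without shRybp 2 it was 0.0783. Eif4e3, the third cap-binding gene, was barely detected in the controls, with 11 and 7 reads against 37 and 32 in the shRybp libraries. In a fit of all genes with no minimum level it was higher by 2.02 (SE 0.37, edgeR adjusted p = 0.0007), but a gene on the same strand, Gm20696, shares 373 of its 2515 exon bases.

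All 3 genes of the set that were grouped as eIF4E-binding proteins rose, and each kept its call in every alternative fit. Genes for such proteins outside the name rule are not counted here. Eif4ebp1 (chr8:27260329-27276674), a repressor that mTORC1 phosphorylates to release eIF4E, read 6.04 and 7.07 FPKM in the controls and 9.15 and 11.3 after knockdown. Its increase of 0.61 (SE 0.12, edgeR adjusted p = 0.00245) corresponds to 1.53-fold. Eif4ebp2, the related repressor and the more abundant of the pair, read 36.6 and 38.0 against 45.9 and 48.8 FPKM and rose by 0.31 (SE 0.06, edgeR adjusted p = 0.0019). Eif4enif1, which carries eIF4E into the nucleus, rose from 12.1 and 11.8 to 15.1 and 14.9 FPKM, by 0.29 (SE 0.07, edgeR adjusted p = 0.006). The summed level of Eif4ebp1 and Eif4ebp2 per unit of Eif4e was 1.04 and 1.24 in the controls and 1.30 and 1.43 after knockdown, without overlap and with no test made. Protein and phosphorylation were not measured.

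**Figure D2:**
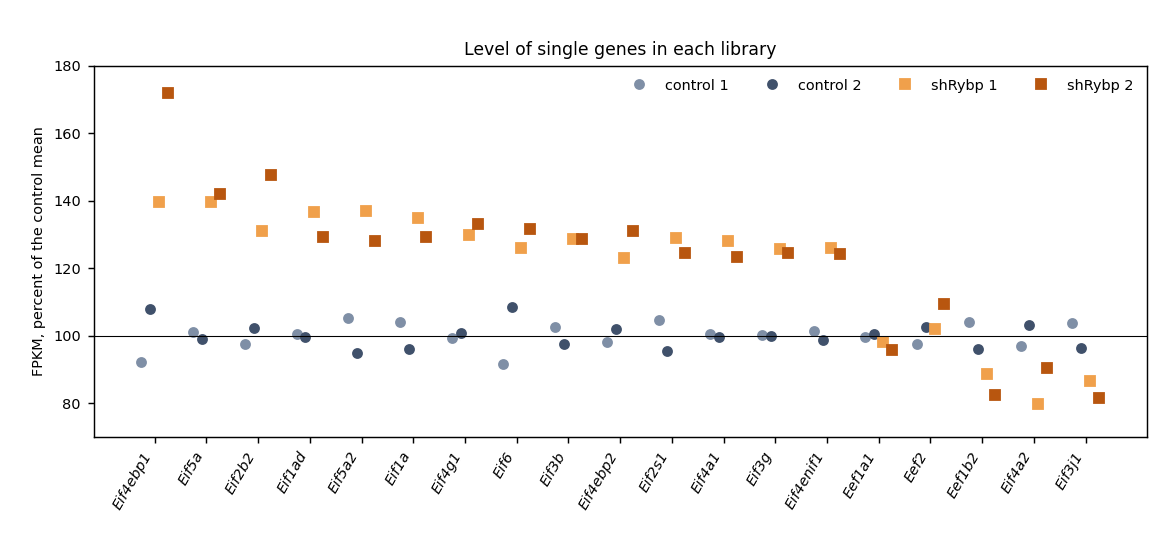
Level of 19 genes in each library (vertical axis, FPKM as percent of the gene's control mean, starting at 70), with circles for the controls and squares for the shRybp libraries. Both shRybp squares of Eif5a (299 and 305 FPKM) lie above its controls (217 and 212 FPKM), and those of Eif4a2 lie below. The squares of Eef1a1 lie close to 100, and those of Eef2 (761 and 816 FPKM) overlap its controls (727 and 766 FPKM).

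In the eIF2 complex the regulatory subunit rose. Eif2s1, the alpha subunit whose phosphorylation slows initiation, read 23.0 and 21.0 FPKM in the controls and 28.4 and 27.4 after knockdown, an increase of 0.30 (SE 0.07, edgeR adjusted p = 0.00465). The beta subunit Eif2s2 had a log2 difference of 0.11 and did not pass. The gamma subunit is encoded by an X-linked and a Y-linked gene. Eif2s3x, the most abundant of the complex, read 45.9 and 43.6 against 50.8 and 47.6 FPKM (log2 difference 0.10, interval -0.04 to 0.24). Eif2s3y read 18.3 and 16.2 against 16.7 and 18.2 FPKM (log2 difference -0.02, interval -0.20 to 0.16), and its groups overlapped. The 4 Y-linked genes measured, Eif2s3y among them, summed to 38.3 to 39.1 FPKM in the 4 libraries, and 1 of them, Kdm5d, fell (log2 fold change -0.34, SE 0.07, edgeR adjusted p = 0.00317). Xist was not analysed here.

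Of the 4 eIF2 kinases, Eif2ak3 rose. Eif2ak3, the kinase that senses unfolded protein in the endoplasmic reticulum, read 12.6 and 12.2 FPKM in the controls and 14.8 and 14.7 after knockdown, an increase of 0.22 (SE 0.07, edgeR adjusted p = 0.0282). Its call was lost without control 2 (edgeR adjusted p = 0.148), shRybp 1 (0.117) or shRybp 2 (0.105), with DESeq2 (adjusted p = 0.0843) and with limma after quantile normalization (adjusted p = 0.0534). Eif2ak4, the sensor of uncharged tRNA, had a log2 difference of the same size (0.22, edgeR adjusted p = 0.093). Eif2ak1, the heme-regulated kinase and the most abundant of the 4 by its mean, read 14.6 and 13.1 FPKM in the controls and 13.8 and 13.6 after knockdown, with overlapping groups. Eif2ak2, activated by double-stranded RNA, differed by -0.03 on the log2 scale. Eif2a and Eif2d, which can deliver initiator tRNA without eIF2, differed by -0.15 and -0.03, and neither passed in the fit that gave the calls. With a replicate term Eif2a passed (log2 difference -0.144, edgeR adjusted p = 0.0301). Without control 2 Eif2a did pass (log2 difference -0.24, edgeR adjusted p = 0.0452).

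The exchange factor eIF2B, which reloads eIF2 with GTP, had all 5 subunit genes higher in both shRybp libraries than in both controls, as were 38.5% of all tested genes. Eif2b2 (chr12:85219481-85226628), the beta subunit, read 21.5 and 22.6 FPKM in the controls and 28.8 and 32.5 after knockdown. It rose by 0.44 (SE 0.09, edgeR adjusted p = 0.00205). Eif2b1, the alpha subunit, read 19.1 and 17.9 against 22.4 and 22.3 FPKM and rose by 0.24 (SE 0.08, edgeR adjusted p = 0.0392). Its call was lost without control 2 (edgeR adjusted p = 0.205), shRybp 1 (0.11) or shRybp 2 (0.105) and with DESeq2 (adjusted p = 0.113). Eif2b5, the catalytic epsilon subunit and the most abundant, read 32.4 and 33.8 against 37.2 and 38.4 FPKM (log2 difference 0.16, edgeR adjusted p = 0.0874). It passed with library totals (edgeR adjusted p = 0.04), with a replicate term (0.0197) and with limma on log2(FPKM + 1) (adjusted p = 0.0497). Eif2b3 and Eif2b4 had log2 differences of 0.15 and 0.04 and did not pass.

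Among factors that open and scan with the small subunit, Eif1a and Eif1ad rose and the other 3 genes were not past the threshold. Eif1a, a form of eIF1A, read 9.46 and 8.74 FPKM in the controls and 12.3 and 11.8 after knockdown, an increase of 0.36 (SE 0.09, edgeR adjusted p = 0.00643). The more abundant Eif1ax read 39.8 and 38.4 against 41.1 and 38.5 FPKM, with overlapping groups and an interval of -0.15 to 0.12. Eif1ad, which encodes a protein with an eIF1A-like domain, rose from 23.0 and 22.9 to 31.3 and 29.6 FPKM, by 0.37 (SE 0.07, edgeR adjusted p = 0.00167). It shares 428 of 2792 exon bases with Banf1 on the opposite strand, which rose by 0.35, and without a known strand setting reads there cannot be told apart. Eif1, which guards start codon choice, read 99.8 and 96.0 against 101 and 105 FPKM, and its near copy Eif1b 55.6 and 52.2 against 48.3 and 50.5 FPKM. The log2 differences of 0.04 and -0.16 did not pass.

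Subunit genes of eIF3, the scaffold of the small subunit, changed in both directions, 3 up and 1 down. Eif3b (chr5:140419328-140443360), a core subunit, read 75.9 and 72.1 FPKM in the controls and 95.2 and 95.1 after knockdown, and rose by 0.33 (SE 0.06, edgeR adjusted p = 0.00135). Eif3g rose from 41.0 and 40.9 to 51.5 and 51.0 FPKM, by 0.29 (SE 0.07, edgeR adjusted p = 0.00502). Eif3d, a subunit that can itself bind the cap of some mRNAs, read 35.8 and 37.1 against 41.7 and 42.0 FPKM, a change of 0.16 (SE 0.06, edgeR adjusted p = 0.0489). The last call was lost in 9 of 14 alternative fits, among them any 1 library left out (edgeR adjusted p from 0.114 to 0.224), RLE size factors (0.0517), no filter on low values (0.0529), a minimum mean of 5 FPKM (0.0703), DESeq2 (0.105) and limma after quantile normalization (0.113). An antisense gene, Gm17638, covers 2151 of its 4968 exon bases.

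Eif3j1 (chr2:122028546-122056598), a loosely bound subunit, went against these. It read 18.4 and 17.1 FPKM in the controls and 15.4 and 14.5 after knockdown, and fell by 0.29 on the log2 scale (SE 0.07, edgeR adjusted p = 0.0082). Without control 1 the edgeR adjusted p was 0.0609 and without shRybp 2 it was 0.072. Its copy Eif3j2 matches it at 99.4% over 2379 bases, and read 0.978 and 1.29 against 0.760 and 1.05 FPKM. Spg11, on the opposite strand, shares 1107 of the 5830 exon bases of Eif3j1 and differed by 0.02. Eif3h, the most abundant subunit gene, read 155 and 143 against 149 and 145 FPKM, with overlapping groups and a log2 difference of -0.06.

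The remaining subunit genes did not pass in the fit that gave the calls. With library totals in place of TMM, Eif3i and Eif3l passed (edgeR adjusted p = 0.038 and 0.0364). With a replicate term Eif3e, Eif3i and Eif3l passed (edgeR adjusted p = 0.0169, 0.0265 and 0.031). Log2 differences of Eif3a, Eif3c and Eif3i were 0.09, 0.08 and 0.14. Those of Eif3e, Eif3f, Eif3k, Eif3l and Eif3m ran from -0.15 (Eif3e) to 0.14 (Eif3l). Eif3e passed without shRybp 1 (log2 difference -0.23, edgeR adjusted p = 0.0445).

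Late in initiation the genes for subunit joining did not pass. Eif5, the activator of GTP hydrolysis by eIF2, read 61.9 and 54.8 FPKM in the controls and 61.5 and 61.0 after knockdown, with overlapping groups and an interval of -0.12 to 0.18. Eif5b, the joining GTPase, had a log2 difference of -0.13, and passed without control 2 (log2 difference -0.23, edgeR adjusted p = 0.0391). On 1643 of its 9753 exon bases it overlaps Rev1 on the opposite strand. Eif6, which keeps the large subunit from joining too early, rose from 15.0 and 17.7 to 20.6 and 21.5 FPKM, by 0.33 (SE 0.09, edgeR adjusted p = 0.0148). That call was lost without control 1 (edgeR adjusted p = 0.132) or shRybp 2 (0.0568).

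Of all 25 changes, that of Eif5a had the smallest adjusted p. Eif5a (chr11:69916714-69921958) encodes the hypusine-bearing factor that helps elongation and termination. It read 217 and 212 FPKM in the controls and 299 and 305 after knockdown, the groups lying far apart. The increase was 0.46 on the log2 scale (SE 0.06, interval 0.32 to 0.59, edgeR adjusted p = 0.00013), or 1.37-fold. Its paralogue Eif5a2, which is far less abundant, read 6.56 and 5.90 against 8.52 and 7.98 FPKM and rose by 0.37 (SE 0.09, edgeR adjusted p = 0.00885). Without control 2 the Eif5a2 call was lost (edgeR adjusted p = 0.0689).

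The most abundant elongation factor genes, Eef1a1 and Eef2, were not past the threshold. Eef1a1 (chr9:78478449-78489151), the main tRNA carrier, read 3976.5 and 4005.5 FPKM in the controls and 3919 and 3815.8 after knockdown. Both shRybp values were lower, yet the log2 difference of -0.08 (interval -0.25 to 0.09) did not pass. The 9 processed pseudogenes alike to Eef1a1 held 1.55% as many counts. Eef2, the translocase, read 727 and 766 against 761 and 816 FPKM, with overlapping groups and an interval of -0.11 to 0.20.

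Eef1b2 (chr1:63176825-63180486), a subunit of the exchange factor that reloads eEF1A, fell. It read 152 and 140 FPKM in the controls and 129 and 120 after knockdown, and fell by 0.26 on the log2 scale (SE 0.07, edgeR adjusted p = 0.0102). Without control 1 the edgeR adjusted p was 0.0792 and without shRybp 2 it was 0.0841. Its partners Eef1d and Eef1g had log2 differences of 0.13 and 0.12 and did not pass, and Eef1e1, a scaffold of the tRNA synthetase complex, differed by 0.06. Eef1a2 (chr2:181147653-181157014), the form of eEF1A known from mature neurons and muscle, had 34 and 36 reads in the controls and 50 and 66 after knockdown. It rose by 0.81 (SE 0.24, edgeR adjusted p = 0.0186) from a low level, and the call was lost without control 1 (edgeR adjusted p = 0.0885) or shRybp 2 (0.117) and with DESeq2 (adjusted p = 0.143). Of 3 neuronal markers tested none rose and 1, Dcx, fell, while Tubb3 and Map2 did not pass (log2 differences 0.20 and -0.18). Rbfox3 was too low to test, at 0.195 and 0.334 FPKM in the controls and 0.382 and 0.345 after knockdown. Whether these markers bear on the Eef1a2 change was not tested.

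Among the enzymes acting on elongation factors, Eef1aknmt, a methyltransferase of eEF1A, rose from 2.46 and 2.32 to 2.95 and 3.02 FPKM, by 0.28 (SE 0.09, edgeR adjusted p = 0.0246). Its call was lost in 7 of 13 alternative fits: without control 2 (edgeR adjusted p = 0.163), shRybp 1 (0.0783) or shRybp 2 (0.125), with DESeq2 (adjusted p = 0.154) and with limma in 3 forms (adjusted p from 0.0784 to 0.0913). Eef1akmt1, the most abundant of the group, read 20.1 and 21.2 against 22.2 and 21.5 FPKM and did not pass. Eef1akmt4 had the largest difference of those not past the threshold, 0.74 (SE 0.29, edgeR adjusted p = 0.0643), at 1.05 and 0.737 against 1.59 and 1.51 FPKM. It passed with a replicate term (edgeR adjusted p = 0.0344) and with limma in 3 forms (adjusted p from 0.0338 to 0.038). It shares 495 of 1614 exon bases with Gm49333 on the same strand. Eef1akmt2 and Eef2kmt differed by 0.03 and 0.27. Eef2k, the kinase that inhibits eEF2, differed by -0.19 (edgeR adjusted p = 0.0826) and passed without control 1 (log2 difference -0.26, edgeR adjusted p = 0.043).

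In several sets the share of a paralogue did not overlap between the groups, when each gene's FPKM was divided by the sum of its set. Eif4a2 made up 16.4% and 17.3% of Eif4a1 plus Eif4a2 in the controls and 11.2% and 12.9% after knockdown. Eif4g1 made up 29.9% and 30.9% of the 3 eIF4G genes in the controls and 34.4% and 36.3% after knockdown, while Eif4g2 went from 62.6% and 61.2% to 58.2% and 55.4%. Eif1a took 19.2% and 18.5% of Eif1a plus Eif1ax, then 23.0% and 23.4%. Eif4ebp1 held 14.2% and 15.7% of the 2 repressor genes, then 16.6% and 18.8%, and Eif1b held 35.8% and 35.2% of its pair, then 32.3% and 32.4%. Eif4e2 held 22.1% and 23.6% of the 3 cap-binding genes, then 24.2% and 24.9%. In each of these the groups did not overlap. Such separation is common with 2 libraries per group. For the FPKM of single genes, both shRybp libraries lay above both controls in 38.5% of all tested genes and below in 29.0%. Shares were not taken over other genes, and these rest on the same values as the calls above. In other sets the groups overlapped: Eif5a2 held 2.55% to 2.94% of its pair, Eif2s3y 24.7% to 28.5% and Eif3j2 4.71% to 7.02% over the 4 libraries. Eef1a2 reached at most 0.0505% of its pair. With 2 libraries per group no exact test of a share can reach the threshold, and none was made.

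**Figure D3:**
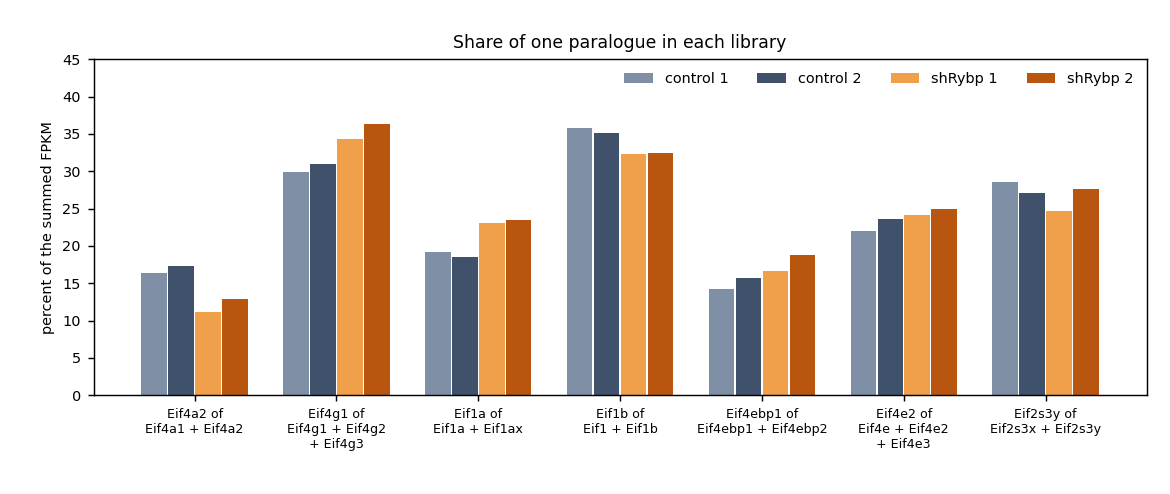
Share of the summed FPKM of its paralogue set (vertical axis, percent, bars from 0) held by 1 gene of each set, with 1 bar per library. The Eif4a2 bars stand at 16.4% and 17.3% in the controls and at 11.2% and 12.9% in the shRybp libraries, and those of Eif2s3y overlap between the groups.

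Look-alike and overlapping genes limit single calls. Processed pseudogenes at least 95% alike were found in the table for 12 of the genes, 23 pseudogenes in all, and for Eif2s2 the pseudogene Gm9892 held 14.8% as many counts as the gene. Several genes share exon bases with neighbours. Overlaps with genes outside the table were not counted, such as 2151 of 4968 exon bases of Eif3d and 485 of 6026 of Eif2ak3. Both of these genes rose. Of 42 tested genes with no look-alike and no overlap in the table, 20 rose and none fell, with a median of 0.16. Over all tested genes 16.3% rose and 16.7% fell, but those were not selected for look-alikes or overlaps in this way. The 3 genes that fell are all among those with a look-alike or an overlap in the table, and whether that bears on their fall was not tested. These overlaps covered 194 of 5338 exon bases in Eif4a2 (Rfc4), 9 of 2532 in Eef1b2 (Ndufs1) and 1107 in Eif3j1.

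Genes that act on these factors were counted from lists of related genes, in the same fit and with no test of a list, and are to be read against the 16.3% that rose, the 16.7% that fell and the median of 0.003 over all tested genes. mTORC1 is the kinase complex that phosphorylates the eIF4E-binding proteins. The list of its genes and upstream regulators gave no gene that rose and 1 that fell among 19 tested. This list also holds Rictor and Mapkap1, of the related complex mTORC2. It mixes activators and inhibitors, so a median over it has no direction for mTORC1 activity. Its median was -0.05, and ran from -0.07 without shRybp 1 to 0.004 without control 1. The gene that fell was Rragb, a GTPase that brings mTORC1 to the lysosome, at 13.3 and 13.9 FPKM against 9.70 and 10.4, a log2 difference of -0.47 (SE 0.09, edgeR adjusted p = 0.00133). Among 21 other regulators of initiation 4 rose and 4 fell. Pdcd4, which inhibits the eIF4A helicase, fell by 0.82 (SE 0.09, edgeR adjusted p = 2.8e-05) from 26.0 and 22.5 to 14.5 and 13.7 FPKM. Larp1, the binder of pyrimidine-tract mRNAs, rose by 0.45 (SE 0.06, edgeR adjusted p = 0.00012) from 23.0 and 24.3 to 32.7 and 33.7 FPKM. Rps6ka1, a kinase downstream of ERK, fell by 0.41 (SE 0.10, edgeR adjusted p = 0.00598). These 4 genes kept their calls in every alternative fit, while the list's number that rose was 1 without control 1 or shRybp 2, and the number that fell was 2 without control 2 or shRybp 2.

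The integrated stress response is the program switched on when eIF2 is phosphorylated. Of 11 tested genes on its list 3 rose and 2 fell, with a median of 0.06. Those that rose were Asns, Sesn2 (log2 fold change 0.465, edgeR adjusted p = 0.00286) and Atf4 (0.23, edgeR adjusted p = 0.0141). Fewer genes of the list rose without control 2 or without shRybp 1, while Asns kept its call in every alternative fit. Asns, asparagine synthetase, rose by 0.60 (SE 0.08, edgeR adjusted p = 0.00011), from 15.4 and 16.3 to 24.9 and 24.4 FPKM. Ddit4, an mTORC1 inhibitor, fell by 0.72 (SE 0.12, edgeR adjusted p = 0.00065), from 52.1 and 68.7 to 33.0 and 41.7 FPKM, and Ddit3, a stress transcription factor, fell by 0.49 (SE 0.15, edgeR adjusted p = 0.0263). The Ddit3 call was lost with any 1 library left out (edgeR adjusted p from 0.0519 to 0.107) and with DESeq2 (adjusted p = 0.162).

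Termination, recycling and rescue factors gave 4 that rose and none that fell among 11. Their median of 0.22 was 0.13 without shRybp 1 and 0.12 with a minimum mean of 5 FPKM. Mcts2, an intronless near copy of Mcts1, rose by 0.42 (SE 0.14, edgeR adjusted p = 0.0365), Etf1, the release factor eRF1, by 0.31 (SE 0.07, edgeR adjusted p = 0.00651) and Abce1, which splits the ribosome after termination, by 0.29 (SE 0.06, edgeR adjusted p = 0.00323). Without control 2 only Abce1 of this list passed, with edgeR adjusted p = 0.0604 for Etf1 and 0.0777 for Mcts2. The Mcts2 call was also lost without control 1 (edgeR adjusted p = 0.0563) or shRybp 1 (0.251) and with DESeq2 (adjusted p = 0.163). Without shRybp 1, Gspt1, the release factor eRF3a and the fourth gene that rose, did not pass either (edgeR adjusted p = 0.0524), and 2 genes of the list rose.

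Of 9 genes that make hypusine on eIF5A or diphthamide on eEF2, none rose and 1 fell, Dnajc24 (log2 fold change -0.35, SE 0.10, edgeR adjusted p = 0.0186). Without shRybp 2 its edgeR adjusted p was 0.169 and with DESeq2 the adjusted p was 0.115, while Dph3 rose without control 1 and Dph2 without shRybp 1. Among 10 mitochondrial translation factors 2 rose, Tufm by 0.24 (SE 0.07, edgeR adjusted p = 0.015) and Gfm1 by 0.20 (SE 0.07, edgeR adjusted p = 0.036). Neither passed without control 2 (edgeR adjusted p = 0.0875 and 0.236) or shRybp 2 (0.121 and 0.0744), and Gfm1 did not pass without shRybp 1 (0.169), with DESeq2 (adjusted p = 0.0929) or with limma after quantile normalization (0.0673). Of 6 selenocysteine insertion genes 2 rose, Sephs2 by 0.41 (SE 0.09, edgeR adjusted p = 0.00313) and Eefsec by 0.30 (SE 0.11, edgeR adjusted p = 0.0486). The Eefsec call was lost without control 1 (edgeR adjusted p = 0.104), control 2 (0.0845) or shRybp 2 (0.38), with a minimum mean of 5 FPKM (0.058), with DESeq2 (adjusted p = 0.219) and with limma after quantile normalization (0.0548).

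**Figure D4:**
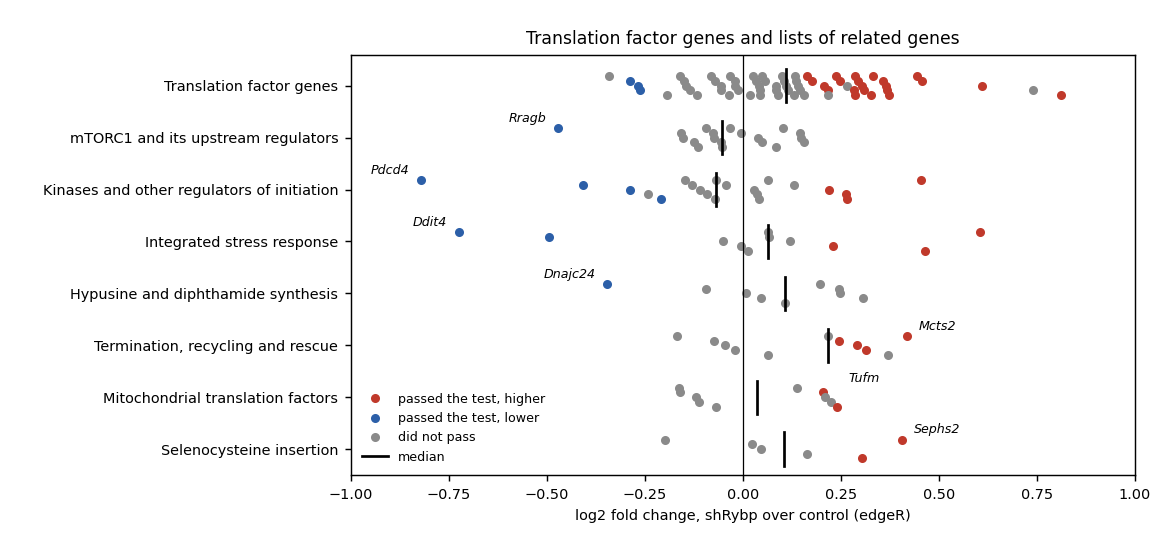
Log2 fold change of shRybp over control (horizontal axis) for each tested translation factor gene and each tested gene of the related lists (1 point per gene), with a vertical bar at the median of each row and colours for genes that passed the test. The regulators of initiation run from -0.82 (Pdcd4) to 0.45 (Larp1), and no point of the mTORC1 list is coloured as having risen.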

How the data were processed

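RNA was sequenced from 4 libraries, 2 per group. The authors' deposited table holds whole-number read counts and FPKM values (scaled for the length of the gene and the size of the library) for 13881 genes, per the file headers. The submitters' processing notes name the genome build mm10. Which aligner, counting tool and strand setting were used is not given in the sources read. The lowest count of a row, summed over the 4 libraries, was 40, so rarer genes are not analysed here. Gene symbols that had been turned into dates (21) were restored from their identifiers. None of these was a translation factor.

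Tests covered the 12062 genes whose mean over the libraries was 1 FPKM or more. Counts were fitted with edgeR 4.0.16 (R 4.3.3), with TMM scaling and group as the only term, by the quasi-likelihood F-test (two-sided). P-values were adjusted by Benjamini-Hochberg over all 12062 genes, and an adjusted p under 0.05 was the threshold for "rose" and "fell". Standard errors were derived from the fold change and its F statistic, and intervals are at 95%. Alternatives were DESeq2 1.42.0, limma 3.58.1 on log2(FPKM + 1) or log2(FPKM + 0.1), other scalings, other filters, a replicate term and leaving out each library.

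The genes and lists were chosen with earlier results of these data known. Values in every library are given for the genes past the threshold (at most 4 per complex, by size of change), for the most abundant gene of each complex and for close paralogues. From each list of related genes, at most 3 past the threshold are named by size of change, and Gspt1, Sesn2 and Atf4 besides. Gene positions were read from the GENCODE M21 annotation on mm10, whose start and end equal those of the table for all 66 genes. Promoter sequences are from RefSeq on GRCm38.p6. Sequence matches between genes were counted from 95% identity over at least 200 bases.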

Additional observations from a re-analysis of the deposited data

How the results depend on the processing

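Of the 25 genes called, 12 passed under all 14 alternatives: Eif1a, Eif1ad, Eif2b2, Eif2s1, Eif3b, Eif3g, Eif4a1, Eif4ebp1, Eif4ebp2, Eif4enif1, Eif4g1 and Eif5a. No called gene changed direction under any of them. The count of genes that rose ran from 13 to 18 when each library was left out and the count that fell from 1 to 5; it was 14 and 5 without control 2 and 13 and 1 without shRybp 2. Where 1 library of a group was left, it was taken to vary like the other group. DESeq2 kept 19 of the 25 calls. Some settings also called genes that were not past the threshold: 4 with library totals, 2 with limma on log2(FPKM + 1) and 10 with a replicate term. The median log2 fold change of 0.110 became 0.146 with library totals in place of TMM, 0.123 with upper-quartile scaling, 0.140 and 0.147 with limma on log2(FPKM + 1) and log2(FPKM + 0.1), 0.082 with a minimum mean of 5 FPKM, and 0.077 to 0.134 with a library left out. For the mTORC1 list, which also holds Rictor and Mapkap1, the median of -0.053 ran from -0.073 to 0.004 with a library left out. The value of 0.004 was without control 1. The cause of these shifts was not tested.

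Over all genes, 2361 rose and 1718 fell with library totals, against 1970 and 2013 with TMM; limma on log2(FPKM + 1) gave 1982 and 1442. Replicate numbers are shared between the groups, but nothing says that they pair the samples: deviations of same-numbered libraries correlated at 0.13 across genes. With the replicate number as a block, 28 of the genes rose and 7 fell, and over all genes 2676 rose and 2652 fell. Counts limit Eif4e3, Eef1akmt4, Eif3j2 and Eef1a2 most, with at most 66 reads in any library.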
